A study of Mus musculus with 100 samples.

Results

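The response of the knee joint to injury was compared between 2 mouse strains, STR/ort and C57BL/6 (C57BL/6J in the study's methods), at 1-day post-injury. For each gene the log2 difference between injured and uninjured contralateral joints in C57BL/6 was subtracted from the same difference in STR/ort, and the result is the interaction of strain and injury. A negative interaction means that the gene rose less, or fell more, in STR/ort. The comparison is between 20 of the 100 libraries of the study, over all 17310 genes of the count table. The spread between replicates was estimated with the 10 libraries of another strain, MRL/MpJ, at 1-day, so that 30 libraries were in the fit.

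The 4 groups were injured and contralateral joints of STR/ort and of C57BL/6, with 5 libraries in each. All mice were 10 weeks old at injury, when the right knee took a compressive load, and the knee of the other side served as the uninjured joint. Joints were whole knees with small traces of soft tissue left on, so that bone with its marrow, cartilage, synovium, ligament, tendon, muscle and fat were sequenced together as poly(A)-enriched RNA. The labels class STR/ort as highly and C57BL/6 as moderately susceptible to post-traumatic osteoarthritis. A contralateral joint comes from a mouse with an injury in the other knee, and uninjured mice were available at 0-day for both strains, with 4 libraries each.

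As background, a loaded and torn joint first goes through an inflammatory phase, in which chemokines draw neutrophils and monocytes out of the blood. A repair phase follows, in which activated fibroblasts of synovium, ligament and capsule lay down type III and type V collagen, fibronectin, periostin and other matricellular proteins, and lysyl oxidases cross-link the new fibres. Macrophages take part in both phases, and they clear debris and signal to the fibroblasts.

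The total count of the 20 libraries ranged from 7556012 to 20986027, with a median of 10790647. Levels are in CPM, a library's count for a gene over its total count after scaling by TMM factors. The 20 libraries share 1 experimental batch in the labels. The labels of the 1-day samples name no animal, so the p-values measure the spread between these samples. In bulk tissue, fewer cells of a type and less RNA per cell cannot be told apart. Genes that mark the tissues named above were measured, among them the lubricin gene Prg4 of the joint surface at 1629 to 2250 CPM in C57BL/6 contralateral joints. Single libraries stood apart. The fast muscle gene Myh4 was at 37360 CPM in C57BL/6 contralateral replicate 1 and at 14760 to 19640 CPM in the rest of that group. The summed level of 18 fast muscle genes was 24180 to 61980 CPM over the STR/ort injured joints and was highest in replicate 5, which also held the extreme value of several genes below.

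Genes are described as called at an adjusted p under 0.05 together with a change of more than 1.5-fold. The interaction was called for 460 of 17310 genes, which is 2.66%. It was lower in STR/ort for 429 genes (2.48%) and higher for 31 (0.179%). Over all genes the median interaction was -0.003, and 17.4% of genes had an unadjusted p under 0.05 (6.75% higher and 10.6% lower). Within strains, 970 genes were called in C57BL/6 (5.6%) and 746 in STR/ort (4.31%). In C57BL/6, 738 genes rose (4.26%) and 232 fell (1.34%), whereas in STR/ort 279 rose (1.61%) and 467 fell (2.7%). The split within a strain moved with the scaling. With 25 housekeeping genes 628 rose and 330 fell in C57BL/6, and with 2 factors of unwanted variation (RUVg) 316 rose and 251 fell in STR/ort. Under the same alternatives the interaction was lower for 381 and 537 genes and higher for 21 and 40. Without STR/ort injured replicate 5 the interaction was called for 692 genes lower and 65 higher, and without C57BL/6 contralateral replicate 1 for 513 lower and 67 higher. With only the 20 libraries fitted, it was called for 345 genes lower and 21 higher. DESeq2 called it for 467 genes lower and 38 higher. Counts are those of edgeR unless another tool is named.

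**Figure D1:**
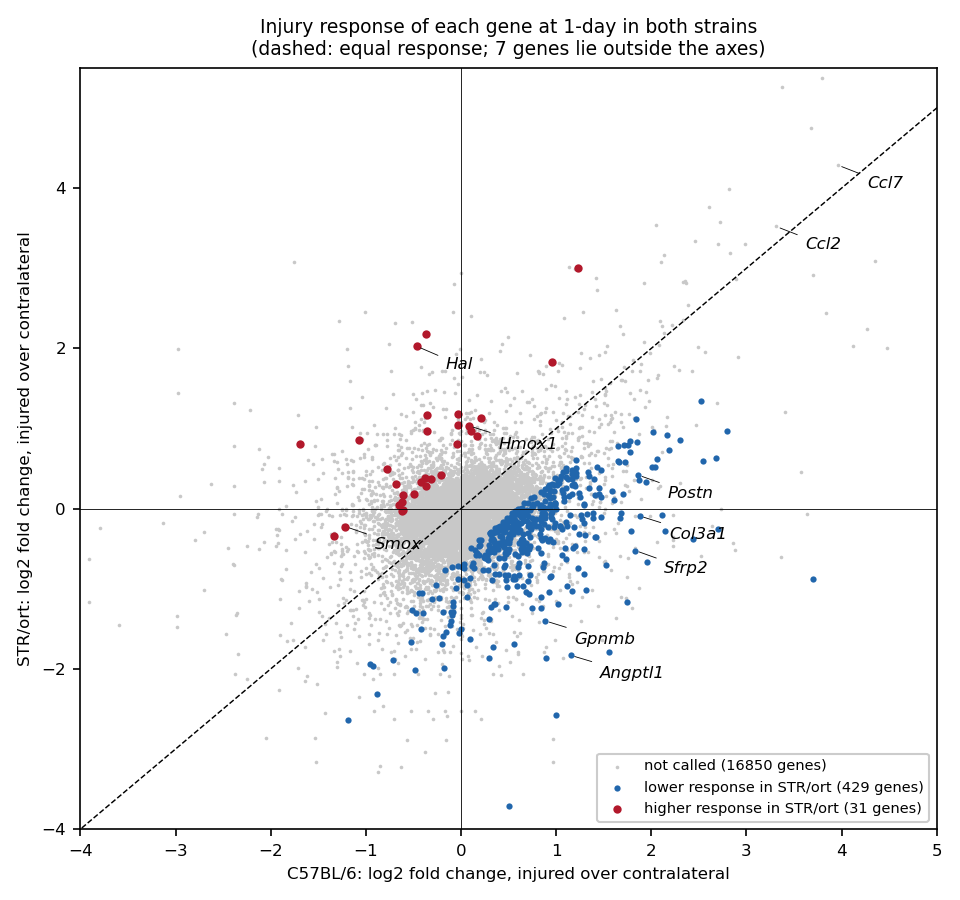
Each point is 1 of 17310 genes, with its log2 fold change of injured over contralateral joints at 1-day in C57BL/6 on the x axis and in STR/ort on the y axis (5 libraries per group). The 429 genes with a lower response in STR/ort lie below the dashed line of equal response, mostly to the right of 0 and near or below 0 on the y axis, and the 31 genes with a higher response lie above it.

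Of the 429 lower genes, 209 rose in C57BL/6 and were not called in STR/ort, 78 were not called in C57BL/6 and fell in STR/ort, and 103 were called in neither strain alone. A further 18 rose in C57BL/6 and fell in STR/ort, 16 rose in both strains and 5 fell in both. The median injury log2 fold change of the 429 genes was 0.683 in C57BL/6 and -0.272 in STR/ort. The same genes stood at a median of 0.445 in STR/ort over C57BL/6 in the contralateral joints, where 10.5% of all genes were called, and of -0.551 in the injured joints, where 12.4% were. All these differences were computed from the same 20 libraries and describe how the interaction was made up. Of the 31 higher genes, 12 fell in C57BL/6 and were not called in STR/ort, 11 rose in STR/ort and were not called in C57BL/6, 2 rose in both and 6 were called in neither.

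**Figure D2:**
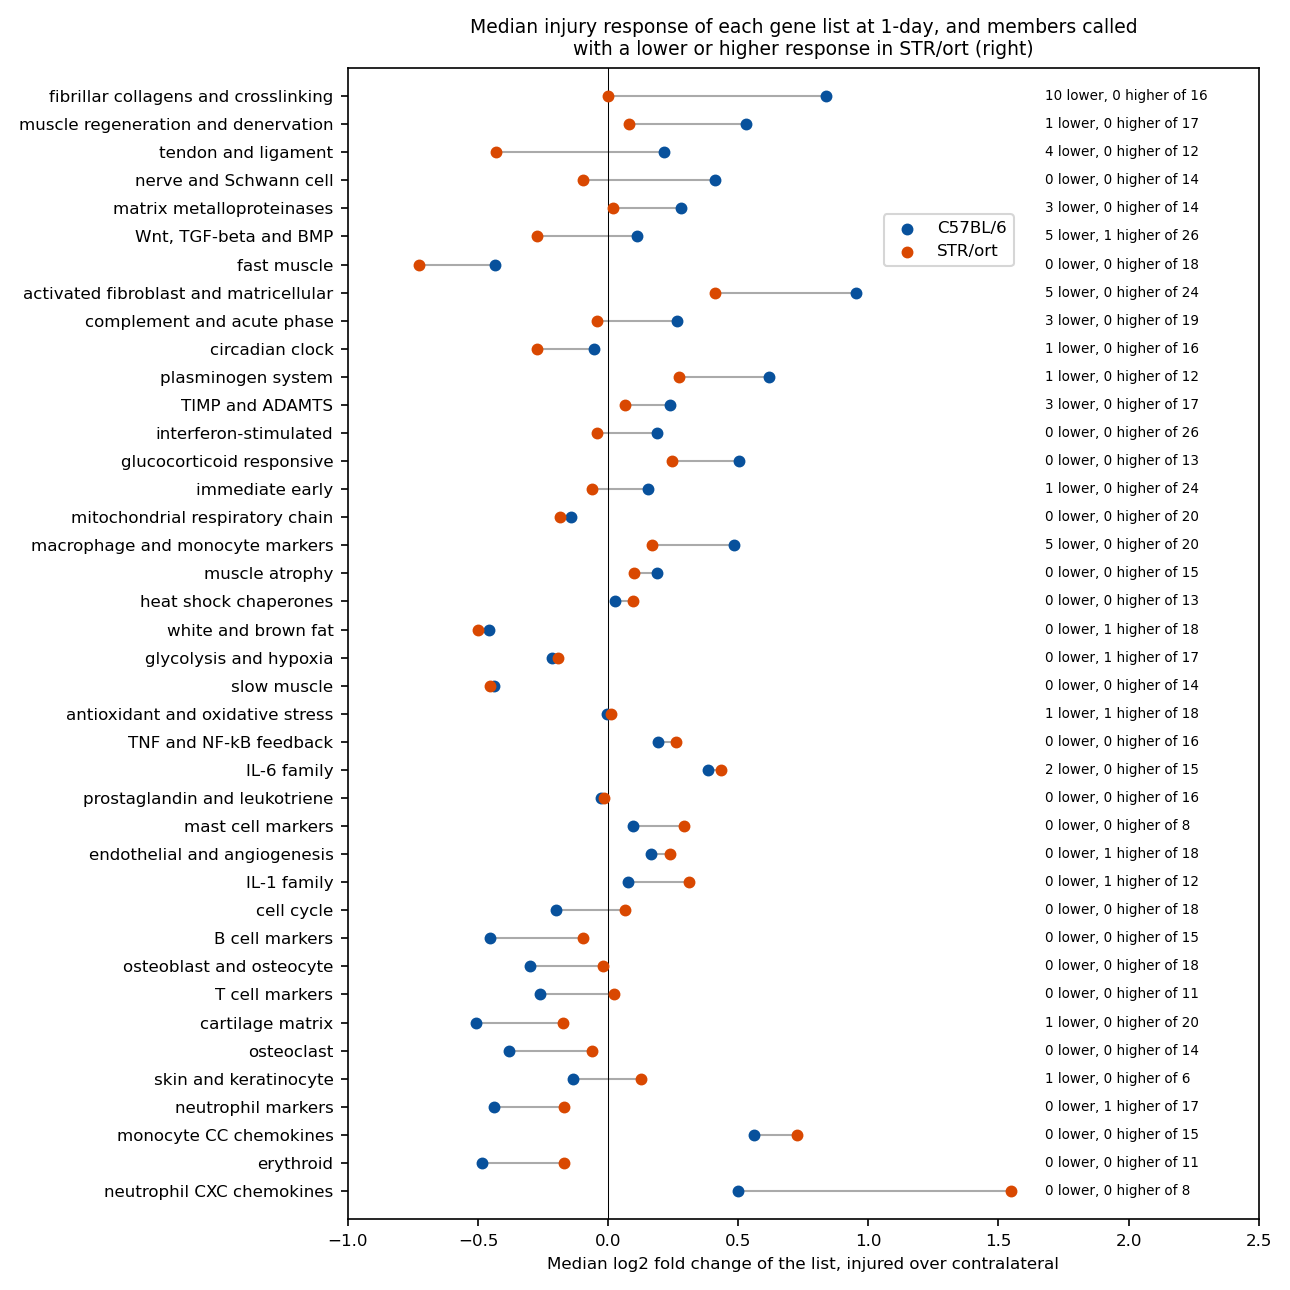
Each row is 1 gene list, with the median log2 fold change of injured over contralateral joints at 1-day on the x axis for C57BL/6 (blue) and STR/ort (orange), sorted by the median interaction. The list of fibrillar collagens stands at the top with medians of 0.839 and 0.0 and 10 of 16 members called lower, and the neutrophil CXC chemokines stand at the bottom.

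Most genes for fibrillar collagens and the enzymes that hydroxylate and cross-link them rose in C57BL/6, and most were not called in STR/ort. Of 16 members measured, 10 rose in C57BL/6 and 1, the lysyl oxidase gene Lox, rose in STR/ort, beside 4.26% and 1.61% of all genes. The interaction was lower for 10 of the 16 and higher for 0, beside 2.48% lower among all genes. The 10 were Col3a1, Col5a1, Col5a2, Col5a3, Loxl1, Loxl2, Loxl3, Plod1, P4ha2 and P4ha3. The median interaction of the list was -0.796. Without STR/ort injured replicate 5 the count was also 10, and over all libraries left out in turn it was 9 or 10. With the 0-day joints in place of the contralateral joints, 2 of the 16 were called lower and 2 higher. That control gave 2364 called genes in all (13.7%), 1618 lower (9.35%) and 746 higher (4.31%), and it shares the injured joints with the comparison above.

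Col3a1 (chr1:45311538-45349706, GRCm38.p6) encodes the alpha chain of type III collagen. Its level was 1957, 1770, 1283, 1677 and 1794 CPM in the C57BL/6 contralateral joints and 7026, 4464, 5210, 8437 and 6122 CPM in the injured ones. In STR/ort it was 2616, 5854, 3272, 4574 and 3266 CPM in contralateral and 3202, 3873, 3482, 3524 and 4558 CPM in injured joints. Every C57BL/6 injured joint was above every contralateral one, while the STR/ort groups overlapped and their contralateral joints lay above all those of C57BL/6. The injury log2 fold change was 1.88 ± 0.18 (SE) in C57BL/6 and -0.09 ± 0.17 in STR/ort, and the interaction was -1.97 ± 0.25 (adjusted p = 4.91e-06).

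Col5a1 encodes a chain of type V collagen. C57BL/6 joints held 245, 245, 196, 221 and 188 CPM without and 591, 409, 417, 728 and 491 CPM with injury. STR/ort joints held 230.4, 374, 298, 308 and 250.5 CPM and 241, 308, 280.5, 271 and 298 CPM. The injured joints were higher than all contralateral joints in C57BL/6, and the groups of STR/ort overlapped. The interaction was -1.35 ± 0.18 (adjusted p = 1.80e-05). For Loxl1, a lysyl oxidase-like enzyme that cross-links elastin and collagen, it was -1.23 ± 0.20 (adjusted p = 1.53e-04), with means of 23.2 ± 5.69 and 56.6 ± 11.5 CPM (SD, n = 5) in C57BL/6 contralateral and injured joints and of 35.7 ± 3.66 and 37.7 ± 4.48 CPM in STR/ort.

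Markers of other tissues moved with this group and their part in it was not tested. In C57BL/6 the summed level of 17 neutrophil markers, which also mark marrow, was 16540 to 20430 CPM in contralateral and 11520 to 14650 CPM in injured joints, without overlap. In STR/ort it was 15990 to 20820 CPM and 14750 to 17800 CPM, with overlap. The summed level of the 16 collagen genes themselves, which the most abundant members dominate, overlapped between all 4 groups, at 15860 to 25510, 22550 to 34430, 20120 to 26610 and 19920 to 24560 CPM in C57BL/6 contralateral and injured and STR/ort contralateral and injured joints.

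Genes of activated fibroblasts included a set that rose in both strains. Of 24 members measured, 16 rose in C57BL/6 and 9 in STR/ort, beside 4.26% and 1.61% of all genes. The interaction was lower for 5, the matricellular genes Postn, Thbs2, Fn1 and Cthrc1 and the fibroblast surface gene Lrrc15, and higher for 0, beside 2.48% lower among all genes. DESeq2 called 5 lower and 1 higher. Against the 0-day joints, 3 were lower and 5 higher, beside 9.35% and 4.31% of all genes. Has1 and Has2, which make hyaluronan, Inhba, Ptx3, Timp1 and the EGF family genes Areg and Ereg rose in both strains and were not called in the interaction.

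Postn (chr3:54359267-54391041), which encodes periostin, was at 355, 438, 391, 396 and 457 CPM in C57BL/6 contralateral and at 1565, 1054, 1518, 1844 and 1450 CPM in injured joints. The STR/ort libraries held 478, 792, 741, 557 and 538 CPM and 801, 887, 888, 780.3 and 849.7 CPM. The lowest injured C57BL/6 joint was above all others of the 20 libraries outside its group, and within STR/ort the groups overlapped by 1 library of each. Its interaction was -1.44 ± 0.16 (adjusted p = 1.16e-06).

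Thbs2 (chr17:14665500-14694262) encodes thrombospondin 2, a matrix protein that binds growth factors and metalloproteinases. It was at 189.5, 181, 167, 139 and 183 CPM and 402, 319, 372, 462 and 408 CPM in C57BL/6 contralateral and injured joints. The STR/ort values were 164, 279, 196, 213 and 182 CPM and 158, 205, 172, 159 and 200.4 CPM. Again the rise was in C57BL/6, where the groups did not overlap, and the interaction was -1.42 ± 0.16 (adjusted p = 1.11e-06). For Cthrc1, a secreted protein of collagen-producing cells, it was -1.61 ± 0.21 (adjusted p = 9.48e-06).

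The choice of control joint bears on these values. Postn, Thbs2 and Cthrc1 stood at means of 661 ± 75.2, 261 ± 27.9 and 48.9 ± 11.6 CPM (SD, n = 4) in the joints of uninjured C57BL/6 mice at 0-day, above their contralateral joints at 1-day. With the 0-day joints as control the interactions were -0.48, -0.50 and -0.26, and none of the 3 was called. Those of Col3a1, Loxl1 and Sfrp2 were -0.83, -0.63 and -1.44 and were called (adjusted p = 0.0122, 0.0109 and 3.76e-04). That of Col5a1 was -0.58, under the 1.5-fold limit.

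**Figure D3:**
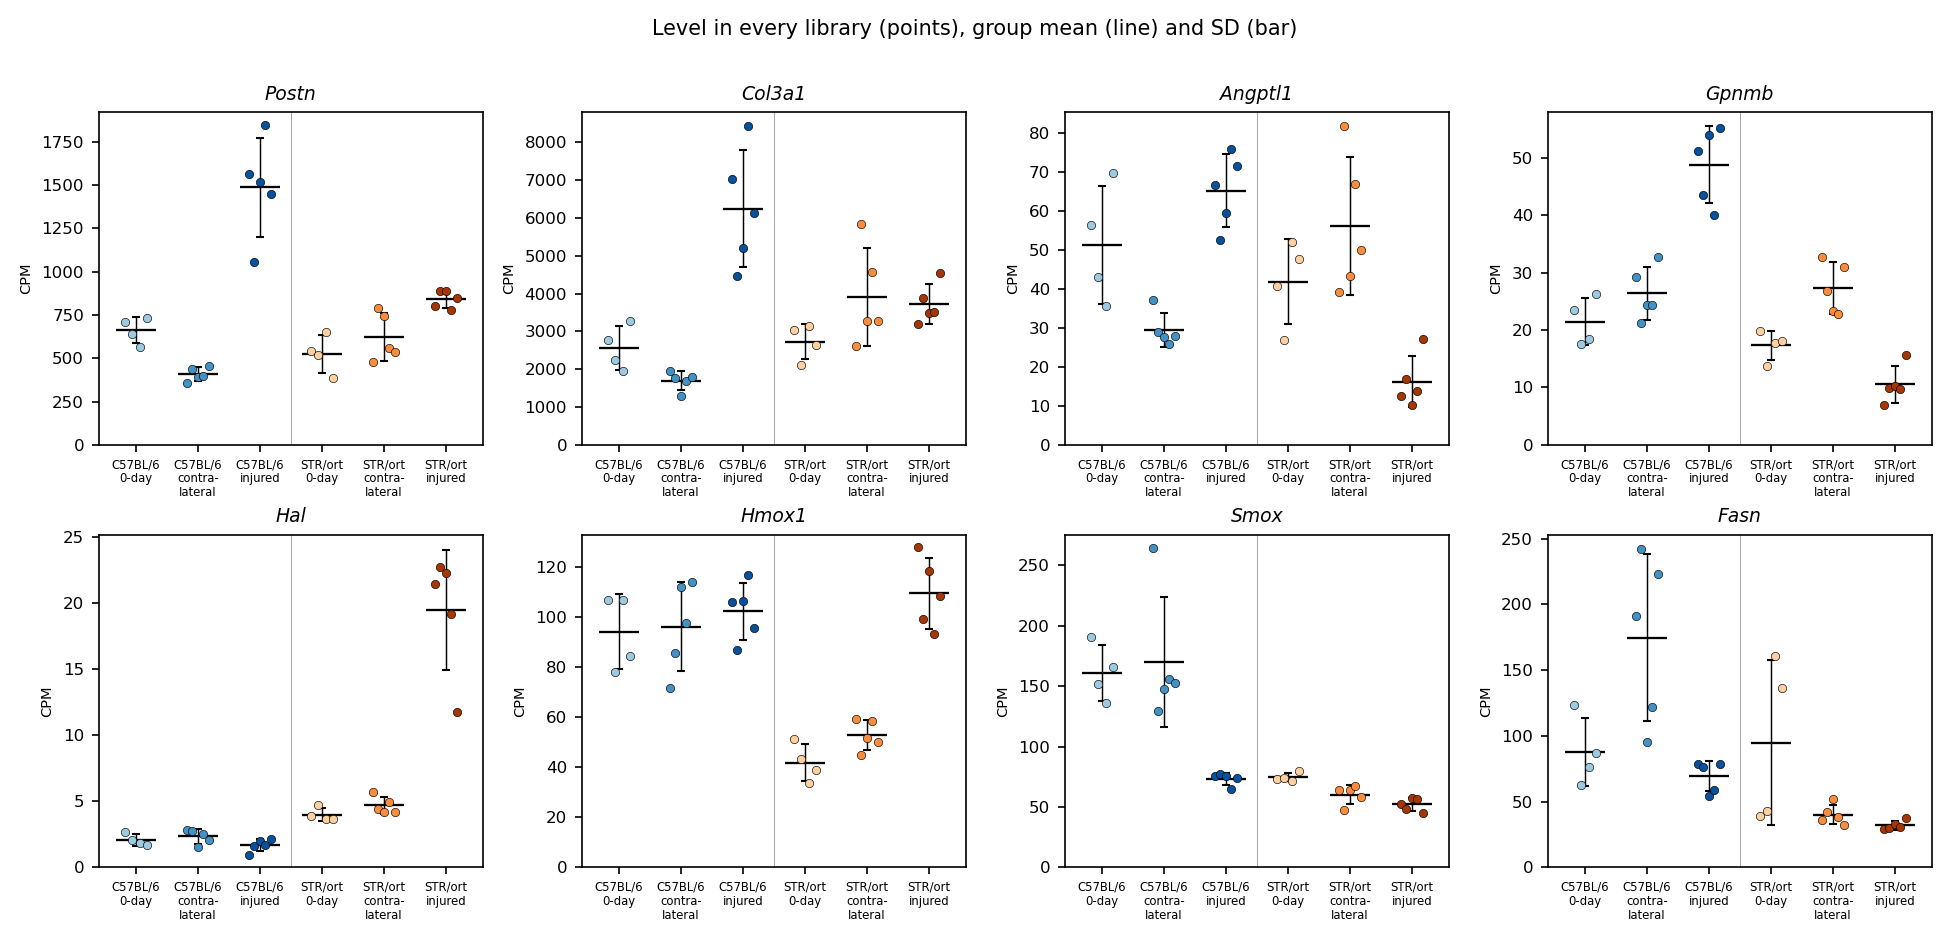
Points are libraries, lines group means and bars SD, with CPM on a linear y axis from 0 and the 6 groups of both strains on the x axis (4 libraries at 0-day, 5 in each group at 1-day). In the upper row the C57BL/6 injured joints were the highest group for Postn, Col3a1, Angptl1 and Gpnmb, and in the lower row Hal was highest in STR/ort injured joints while Smox and Fasn were highest in C57BL/6 contralateral joints.

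The gene with the smallest adjusted p moved in opposite directions in the 2 strains. Angptl1 (chr1:156839023-156861078), a secreted angiopoietin-like protein, was at 37, 29.1, 27.8, 25.8 and 27.9 CPM in C57BL/6 contralateral and 66.7, 52.6, 59.4, 75.9 and 71.5 CPM in injured joints. The values of STR/ort were 39.2, 81.7, 43.4, 66.9 and 49.9 CPM and 12.6, 16.9, 10.3, 13.8 and 27.1 CPM. It rose in C57BL/6 by 1.15 ± 0.19 (log2, SE) and its change in STR/ort was -1.83 ± 0.20, in neither case with overlap, and the interaction was -2.98 ± 0.28 (adjusted p = 9.50e-08). The highest STR/ort injured value was that of replicate 5.

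Gpnmb (chr6:49036518-49058182), a transmembrane glycoprotein of macrophages and osteoclasts, behaved alike. It was at 29.3, 21.2, 24.3, 24.4 and 32.8 CPM and 51.2, 43.5, 54, 40.1 and 55.1 CPM in C57BL/6 contralateral and injured joints, and at 32.7, 26.7, 23.3, 22.8 and 31 CPM and 7, 9.92, 10.2, 9.8 and 15.7 CPM in those of STR/ort. The contralateral joints of the strains overlapped, and the injured joints of C57BL/6 were above and those of STR/ort below all of them. The interaction was -2.29 ± 0.22 (adjusted p = 1.51e-07).

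Col14a1, a collagen on the surface of fibrils in tendon and skin, held 82.1, 77.8, 73.5, 66.7 and 63.3 CPM in C57BL/6 contralateral and 157 to 202 CPM (median 177) in injured joints. In STR/ort the values were 99.5, 179, 94.2, 161 and 97.9 CPM and 49.3, 58, 52, 53.1 and 104 CPM. Every injured C57BL/6 joint was above every contralateral one, and in STR/ort every injured joint but replicate 5 was below every contralateral one. The interaction was -2.33 ± 0.24 (adjusted p = 2.53e-07).

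Ptn, which encodes the heparin-binding growth factor pleiotrophin, and Dkk3, a secreted protein of the Dickkopf family, also rose in C57BL/6 and fell in STR/ort, with interactions of -1.72 ± 0.18 (adjusted p = 2.53e-07) and -1.56 ± 0.18 (adjusted p = 2.86e-06). Sepp1, the selenium carrier selenoprotein P, fell in STR/ort by 0.64 on the log2 scale and stood at 0.28 in C57BL/6, under the 1.5-fold limit, with an interaction of -0.92 ± 0.11 (adjusted p = 2.55e-06). The membrane peptidase gene Anpep and Sulf2, which trims sulfate groups of heparan sulfate, rose in C57BL/6 and were not called in STR/ort, with interactions of -1.46 ± 0.16 (adjusted p = 1.11e-06) and -1.14 ± 0.14 (adjusted p = 3.26e-06). For Rin2, an activator of the endocytic GTPase Rab5, the interaction was -0.74 ± 0.09 (adjusted p = 3.26e-06), and its log2 fold change in C57BL/6, 0.55 ± 0.06, was under the 1.5-fold limit. Of these 6, Sepp1, Sulf2 and Rin2 were not called with the 0-day joints as control, at -0.47, -0.17 and -0.15.

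Promoters of 4 genes are shown because they stand for the kinds of response above and below: Hal and Selp rose in STR/ort, Angptl1 moved in opposite directions and Col3a1 rose in C57BL/6. Each is the 100 bases before the RefSeq start of the gene on the strand of the gene (plus in all 4), from GRCm38.p6, and capitals mark a match to a motif.
Hal, chr10:93488668-93488767: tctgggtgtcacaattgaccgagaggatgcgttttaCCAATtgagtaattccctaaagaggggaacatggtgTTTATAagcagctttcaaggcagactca
Selp, chr1:164115164-164115263: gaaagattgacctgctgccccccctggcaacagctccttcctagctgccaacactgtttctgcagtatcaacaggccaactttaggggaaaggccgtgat
Angptl1, chr1:156838923-156839022: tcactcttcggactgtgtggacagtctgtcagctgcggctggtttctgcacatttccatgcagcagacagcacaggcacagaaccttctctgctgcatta
Col3a1, chr1:45311438-45311537: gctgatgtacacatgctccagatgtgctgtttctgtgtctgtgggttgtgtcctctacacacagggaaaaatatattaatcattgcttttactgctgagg
The capitals in the Hal promoter are a CCAAT box (CCAAT) and, nearer to the start and on the other strand, a TATA box (TATAAA), and the other windows hold no match to the 5 motifs searched. Over the whole RefSeq window, from 250 bases before to 50 after the start and on both strands, TATAAA was found for 8.40% of 12794 genes with a promoter, for 44 of 302 genes with a lower interaction (14.6%) and for 8 of 25 with a higher one. The AP-1 site TGANTCA was found for 5.61% of all, 7.62% of the lower and 5 of the 25 higher genes, CCAAT for 38.3%, 33.1% and 7 of 25, and the antioxidant response element TGACNNNGC for 14.5%, 13.9% and 4 of 25. A site of NF-kB was found for 0.43%, 3 of 302 and 0 of 25. These are matches of letters, and they were not tested.

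Of 26 genes of the Wnt, TGF-beta and BMP pathways, the interaction was lower for 5 and higher for 1, beside 2.48% and 0.179% of all genes. In C57BL/6 8 rose (4.26% of all genes), and in STR/ort 2 rose (1.61%) and 3 fell (2.7%), namely Dkk3, Frzb and Grem1. The control from 0-day gave 5 lower and 3 higher, beside 9.35% and 4.31%. The count lower was 6 without STR/ort injured replicate 5, and DESeq2 called 6 lower and 2 higher. The lower genes were the antagonists Sfrp1 and Sfrp2, Dkk3, the receptor gene Fzd2 and the ligand gene Tgfb3, and the higher one was the ligand gene Bmp2. Sfrp2, a secreted protein that binds Wnt ligands, was at 43.5, 33.8, 24, 23.3 and 38.3 CPM in C57BL/6 contralateral and 124, 78.6, 128, 142 and 102 CPM in injured joints. In the joints of STR/ort the values were 23.7, 45.1, 27.4, 62.8 and 38.7 CPM and 23.8, 22.4, 28, 26.1 and 38.5 CPM. The 5 injured C57BL/6 joints were the 5 highest, and the interaction was -2.35 ± 0.28 (adjusted p = 3.26e-06). Fzd2 stood at means of 4.43 ± 0.951, 10.2 ± 2.45, 5.37 ± 0.813 and 4.38 ± 0.807 CPM (SD, n = 5) in the same order of groups, with an interaction of -1.56 ± 0.25 (adjusted p = 1.53e-04). With the housekeeping scaling 5 members were lower and 0 higher, so that Bmp2 was not called there.

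Of 12 tendon and ligament genes measured, 3 rose in C57BL/6 and 4 fell in STR/ort, beside 4.26% and 2.7% of all genes. The interaction was lower for 4, beside 2.48% of all genes: Col14a1, the tendon transcription factor gene Scx, the keratan sulfate proteoglycan gene Kera and Chodl. For Scx the interaction was -0.93 ± 0.25 (adjusted p = 0.031) and for Kera -1.22 ± 0.34 (adjusted p = 0.0314). The call of Scx was lost without any one of 8 libraries and that of Kera without any one of 9, and neither was called with the 0-day joints as control, at -0.15 and -0.59. The call of Scx was also lost with the replicate number as a block, that of Kera with only the 4 groups fitted, and both with the housekeeping scaling. In the whole list 3 were lower and 0 higher with the control from 0-day, beside 9.35% and 4.31% of all genes. Without STR/ort injured replicate 5, 6 members were lower, over all libraries left out in turn 1 to 6 were, and with scaling by 25 housekeeping genes 1 was. The summed level of fast muscle genes was lowest in 4 injured joints of STR/ort, and its part was not tested.

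Among genes that cut the matrix or inhibit the enzymes that do, the interaction was lower for Mmp2, Mmp12 and Mmp23 of 14 metalloproteinases. It was also lower for Timp4, Adamts12 and Adamts15 of 17 TIMP and ADAMTS genes. It was higher for 0 in both lists, beside 2.48% lower among all genes. In each list 4 were lower without STR/ort injured replicate 5. The control from 0-day turned the balance to 3 higher and 2 lower in each list, beside 4.31% and 9.35% of all genes. Mmp2, a gelatinase of stromal cells, was at 292, 293, 228, 254 and 239 CPM in C57BL/6 contralateral and 398, 298, 301, 415 and 352 CPM in injured joints. STR/ort joints held 276, 447, 332, 343 and 333 CPM and 253, 289.8, 266, 244 and 318 CPM. Every injured C57BL/6 joint was above every contralateral one and the STR/ort groups overlapped, with log2 fold changes of 0.43 ± 0.11 and -0.36 ± 0.11, under the 1.5-fold limit in both. The interaction was -0.79 ± 0.15 (adjusted p = 0.00135). It was 0.070 with the 0-day joints as control. Mmp3 and Mmp19, and Timp1, Adamts1, Adamts4 and Adam12, rose in both strains and were not called in the interaction. Timp4, an inhibitor of metalloproteinases, fell in both strains, from 5.36 ± 1.49 to 2.73 ± 0.562 CPM in C57BL/6 and from 5.38 ± 1.14 to 1.37 ± 0.356 CPM in STR/ort, with an interaction of -1.04 ± 0.26 (adjusted p = 0.0169). The call of Mmp12 was lost without any one of 12 libraries and that of Adamts12 without any one of 9, and both were lost with the replicate number as a block. Those of Mmp12, Timp4 and Adamts12 were lost with only the 4 groups fitted. Against the 0-day joints Mmp23, Adamts12 and Adamts15 were not called, at 0.13, -0.34 and 0.39.

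Of 20 macrophage and monocyte markers, 8 rose in C57BL/6 and 4 in STR/ort, beside 4.26% and 1.61% of all genes. The interaction was lower for 5, beside 2.48% of all genes: Adgre1 (F4/80), the mannose receptor gene Mrc1, the complement gene C1qa, Ms4a7 and Gpnmb. Against the 0-day joints, 1 was lower and 5 were higher, beside 9.35% and 4.31% of all genes. DESeq2 called 5 lower and 1 higher. Cd14, Msr1 and Fcgr1 rose in both strains and were not called in the interaction. The summed level of the 20 markers overlapped between the groups, at 3747 to 5171 and 4284 to 4932 CPM in C57BL/6 contralateral and injured and 3881 to 5099 and 4517 to 5534 CPM in STR/ort contralateral and injured joints.

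C1qa, a chain of the first complement component, was at 45.5, 57.3, 45.3, 50.9 and 43.9 CPM in C57BL/6 contralateral and 91.7, 70.4, 78.7, 96.2 and 66.6 CPM in injured joints. STR/ort joints without and with injury held 59.5, 69.2, 52.8, 62.5 and 58.3 CPM and 42.5, 59.2, 46.4, 55.9 and 65.5 CPM. The groups were apart in C57BL/6 and overlapped in STR/ort, and the interaction was -0.92 ± 0.15 (adjusted p = 1.68e-04). For Mrc1 it was -0.78 ± 0.12 (adjusted p = 1.50e-04). With the 0-day joints as control, C1qa stood at -0.31 and Mrc1 at -0.086, and neither was called. Of 19 complement and acute phase genes, the proteases C1ra and C1s1 and the C3a receptor gene C3ar1 were lower, beside 2.48% of all genes. With the control from 0-day 3 of the 19 were higher and 2 lower, beside 4.31% and 9.35%. The call of C1ra was lost without STR/ort injured replicate 1 or contralateral replicate 2. C3ar1 rose in both strains, by 2.53 ± 0.18 in C57BL/6 and 1.34 ± 0.17 in STR/ort (log2, SE), and the interaction was -1.18 ± 0.24 (adjusted p = 0.00284). Neither C3ar1 nor C1ra was called against the 0-day joints, at -0.39 (adjusted p = 0.28) and -0.45 (adjusted p = 0.0566).

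Some genes with a lower interaction rose in both strains, and their contralateral joints were higher in STR/ort. Sod3, the extracellular superoxide dismutase, was at 100.1, 126, 89.7, 91.7 and 128 CPM in C57BL/6 contralateral and 388, 228, 342, 528 and 329.9 CPM in injured joints. Contralateral and injured joints of STR/ort held 173, 289.6, 191, 253 and 233 CPM and 339, 394, 354, 414 and 499 CPM. The contralateral joints were higher in STR/ort without overlap, by 1.1 ± 0.17 on the log2 scale, and the injured joints overlapped, with a difference of 0.13 ± 0.16 (adjusted p = 0.58). The interaction was -0.97 ± 0.23 (adjusted p = 0.0108). Sod3 rose in both strains, and so did the protease inhibitor gene Serpina3n. The difference between strains of Serpina3n was 1.43 ± 0.23 in contralateral joints and 0.18 ± 0.21 (adjusted p = 0.56) in injured joints, and its interaction was -1.24 ± 0.31 (adjusted p = 0.0162). Against the 0-day joints the interactions were -0.12 for Sod3 (adjusted p = 0.76) and -0.27 for Serpina3n (adjusted p = 0.61), and neither was called.

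Prg4 (chr1:150449412-150466221) encodes lubricin, the lubricant of the cartilage surface. It was at 1935, 1650, 2033, 1629 and 2250 CPM in C57BL/6 contralateral and 4074, 2969, 2810, 4025 and 3657 CPM in injured joints. The STR/ort libraries held 6448, 9157, 7442, 7512 and 8214 CPM and 9031, 7284, 5412, 7852 and 9806 CPM. Every STR/ort library was above every C57BL/6 library, the C57BL/6 groups were apart and the STR/ort groups overlapped. The interaction was -0.88 ± 0.22 (adjusted p = 0.0153), and 0.035 with the 0-day joints as control. The other 19 cartilage genes measured were not called in the interaction by edgeR, which called 2.48% of all genes lower. DESeq2 called 2 of the 20 lower, beside 467 of 17310 genes. Without STR/ort injured replicate 5, 5 of the 20 were lower, beside 692 of 17310 genes. The control from 0-day gave the opposite direction, with 5 of the 20 higher and 0 lower, beside 4.31% and 9.35% of all genes.

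The higher genes were few. Hal (chr10:93488768-93516761), histidine ammonia-lyase, which takes the first step of histidine breakdown, had the smallest adjusted p. It was at 2.81, 2.76, 1.53, 2.56 and 2.04 CPM in C57BL/6 contralateral and 0.931, 1.61, 1.97, 1.72 and 2.17 CPM in injured joints. In the joints of STR/ort the values were 5.73, 4.39, 4.2, 4.93 and 4.2 CPM and 21.4, 22.7, 22.3, 19.1 and 11.7 CPM. The STR/ort injured joints were above the libraries of the other 3 groups, replicate 5 was the lowest of them, and the C57BL/6 groups overlapped. The rise in STR/ort was 2.03 ± 0.17 and the interaction 2.49 ± 0.31 (adjusted p = 3.89e-06), and the latter lay at 2.58 with the 0-day joints as control.

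Hmox1 (chr8:75093618-75100593), the heme-degrading enzyme heme oxygenase 1, rose in STR/ort from a lower level to that of C57BL/6. C57BL/6 joints held 71.8, 85.8, 112, 97.7 and 114 CPM without and 106, 86.8, 106, 117 and 95.7 CPM with injury. STR/ort joints held 59.4, 44.9, 51.8, 58.4 and 49.9 CPM and 128, 99.5, 118, 93.3 and 108 CPM. All STR/ort contralateral joints were below all others, and the other 3 groups overlapped. The interaction was 0.95 ± 0.15 (adjusted p = 1.43e-04). In the same list of 18 antioxidant genes Sod3 was lower and the other 16 were not called.

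Selp (chr1:164115264-164150026), which encodes P-selectin of activated endothelium and platelets, was at 11.9, 13.9, 17.1, 19.2 and 16 CPM in C57BL/6 contralateral and 20.2, 17.2, 14.7, 17.7 and 19.1 CPM in injured joints. STR/ort joints without and with injury held 22.4, 18.6, 17.3, 20.4 and 19.3 CPM and 40.8, 34.9, 39.4, 36.9 and 33.8 CPM. The STR/ort injured joints stood above all others and the remaining groups overlapped, with an interaction of 0.73 ± 0.15 (adjusted p = 0.00268). Clec4e, a receptor of myeloid cells for mycobacterial glycolipid and dead cells, was at 14.2 to 20, 13.3 to 22.2, 20.9 to 26.4 and 26.4 to 48.1 CPM in C57BL/6 contralateral and injured and STR/ort contralateral and injured joints. Its lowest STR/ort injured value was that of replicate 5, and the interaction was 0.85 ± 0.18 (adjusted p = 0.00428). Il13ra2, the decoy receptor of interleukin 13, rose in STR/ort, with an interaction of 1.32 ± 0.28 (adjusted p = 0.00366). The myeloid receptor gene Trem1 and the decoy receptor gene Il1r2 were called at 0.65 ± 0.16 (adjusted p = 0.0118) and 0.68 ± 0.20 (adjusted p = 0.0465). Neither was called in either strain alone. The call of Il1r2 was lost without any one of 13 libraries, with the housekeeping scaling and with only the 4 groups fitted, and that of Trem1 without C57BL/6 contralateral replicate 4. H2-Q10, a class I histocompatibility gene, was called at 0.70 ± 0.17 (adjusted p = 0.0112). It fell in C57BL/6 by 0.62 on the log2 scale and stood at 0.087 in STR/ort. Its reads can be shared with near-identical class I genes that differ between strains. Fam110c was at 0.0824 to 0.452 CPM in STR/ort contralateral and 0.598 to 1.9 CPM in injured joints, which are few counts, and its interaction was 2.55 ± 0.52 (adjusted p = 0.0028). The unnamed gene models Gm20362 and Gm20597 were also called higher.

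Like H2-Q10, other higher genes fell in C57BL/6. Smox (chr2:131491858-131525183), which oxidizes spermine, was at 264, 129, 148, 156 and 152 CPM in C57BL/6 contralateral and 75.9, 77, 75.5, 64.5 and 73.6 CPM in injured joints. Contralateral and injured joints of STR/ort held 63.7, 47.8, 64, 67.8 and 58 CPM and 52.9, 48.5, 57.7, 56.4 and 45.4 CPM. The 5 C57BL/6 contralateral joints were the highest and the STR/ort groups overlapped, and the interaction was 0.99 ± 0.19 (adjusted p = 0.00136). Fasn and Acaca, the fatty acid synthase and the carboxylase that supplies it with malonyl-CoA, fell in C57BL/6 by 1.33 and 0.65 on the log2 scale and stood at -0.34 and 0.044 in STR/ort. Their interactions were 1.00 ± 0.25 (adjusted p = 0.0153) and 0.69 ± 0.14 (adjusted p = 0.0033). Taking the 0-day joints as control gave -1.23 and -0.34, which turns the direction. The summed level of 18 fat genes, Fasn among them, was 1629 to 3210 and 1442 to 1834 CPM in C57BL/6 contralateral and injured and 1664 to 2009 and 1142 to 1733 CPM in STR/ort contralateral and injured joints. Of the 18, 6 fell in C57BL/6 and 7 in STR/ort, beside 1.34% and 2.7% of all genes. Fasn was the 1 called in the interaction, against 1 higher and 5 lower with the control from 0-day, beside 4.31% and 9.35%. The part of fat in these values was not tested.

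Several chemokine genes rose in both strains. Of 15 genes for monocyte chemokines of the CC class and their receptors, 7 rose in C57BL/6 and 6 in STR/ort, and of 8 neutrophil CXC chemokine genes 3 and 4, beside 4.26% and 1.61% of all genes. The interaction was called for 0 in both lists by edgeR and by DESeq2, and in each list 2 genes had an unadjusted p under 0.05, toward a higher response in STR/ort, beside 6.75% of all genes. When the 0-day joints were the control, 5 of the CC list were called higher, and 2 of the CXC list higher and 1 lower, beside 4.31% higher and 9.35% lower among all genes. Ccl2 (chr11:82035577-82037452), the main attractant of monocytes, was at 0.674, 1.1, 0.361, 0.54 and 1.27 CPM in C57BL/6 contralateral and 7.57, 5.69, 8.8, 9.73 and 6.43 CPM in injured joints. The STR/ort libraries held 6.78, 2.89, 0.934, 1.92 and 1.32 CPM and 42, 36.8, 32.8, 33 and 22.2 CPM. The groups of each strain were apart, and all injured joints of STR/ort were above all those of C57BL/6, a log2 difference of 2.11 ± 0.26 (adjusted p = 2.01e-07). In the contralateral joints the difference was 1.90 ± 0.44. The interaction of Ccl2 was 0.21 ± 0.58 (adjusted p = 0.9), with a 95% interval from -0.99 to 1.41, which spans a weaker and a stronger response in STR/ort.

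Ccl7, another monocyte attractant, rose by 3.96 ± 0.40 in C57BL/6 and 4.29 ± 0.34 in STR/ort, and the neutrophil attractant Cxcl5 by 2.70 ± 0.34 and 3.30 ± 0.31. Their injured joints were higher in STR/ort, by 1.5 ± 0.27 (adjusted p = 7.04e-05) and 1.30 ± 0.27 (adjusted p = 3.82e-04). The 95% intervals of the interaction ran from -0.96 to 1.61 and from -0.39 to 1.59.

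**Figure D4:**
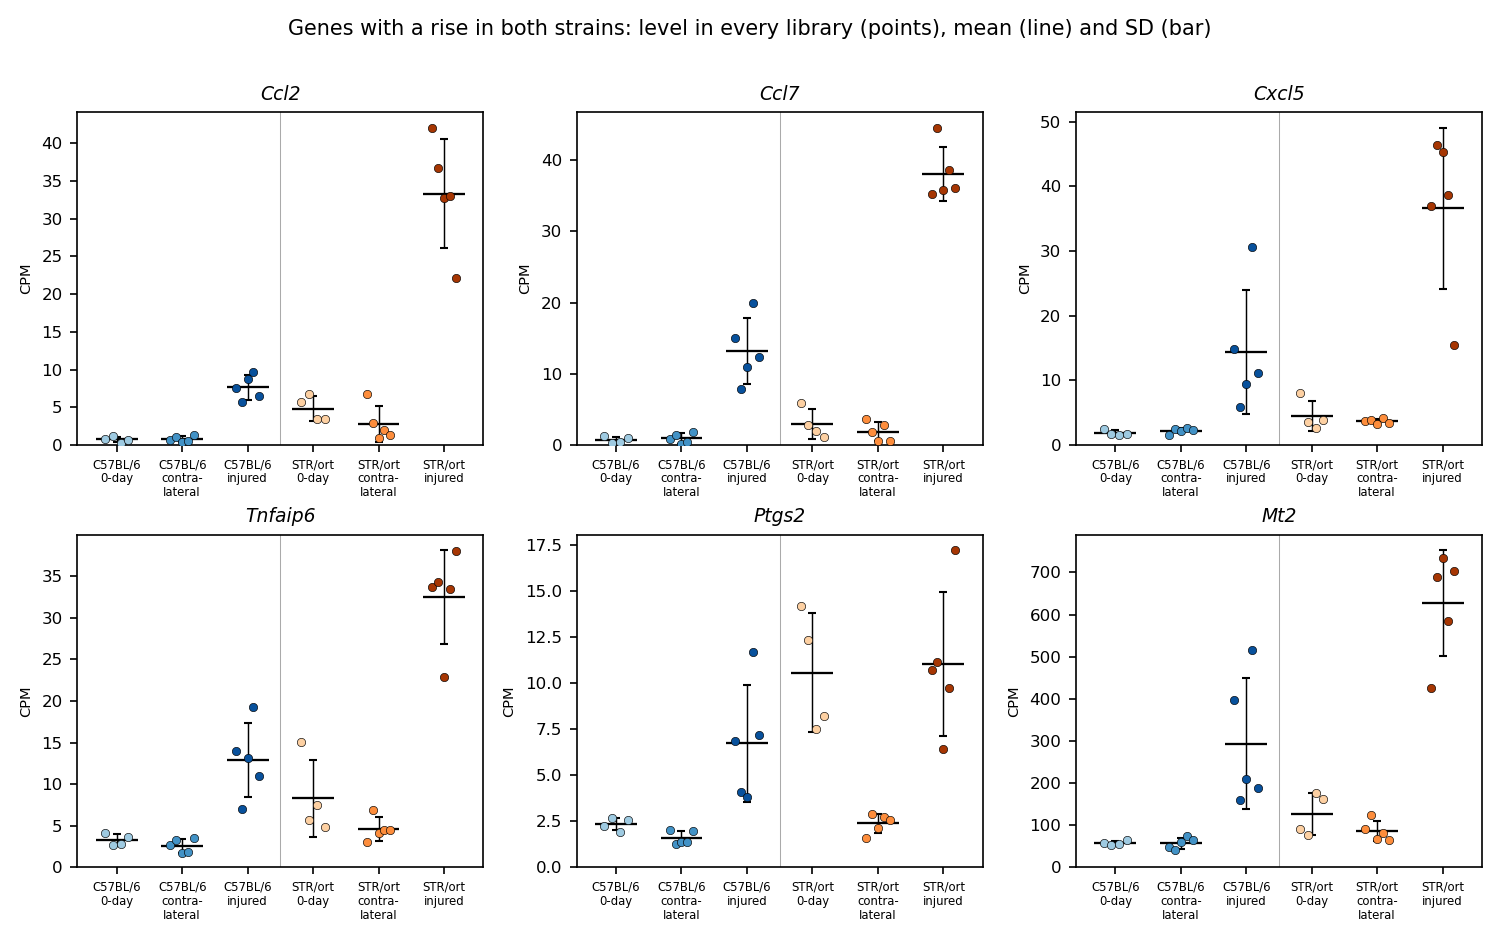
Points are libraries, lines group means and bars SD, with CPM on a linear y axis from 0 and the 6 groups of both strains on the x axis (4 libraries at 0-day, 5 in each group at 1-day). The injured joints were the highest group within each strain at 1-day for Ccl2, Ccl7, Cxcl5, Tnfaip6, Ptgs2 and Mt2, and those of STR/ort had the higher means.

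Of 16 TNF and NF-kB feedback genes 3 rose in C57BL/6 and 5 in STR/ort, beside 4.26% and 1.61% of all genes. The interaction was called for 0 by edgeR and by DESeq2 and had an unadjusted p under 0.05 for 4, all higher, beside 6.75% of all genes. In this list 1 was called higher when the 0-day joints served as control, beside 4.31%. Tnfaip6, a hyaluronan-binding protein induced by TNF, rose by 2.36 ± 0.28 and 2.82 ± 0.25 in C57BL/6 and STR/ort, with an interval of the interaction from -0.35 to 1.25. Ptgs2, the inducible cyclooxygenase, rose by 2.13 ± 0.27 and 2.19 ± 0.25, and the interval ran from -0.78 to 0.88. With the control taken from 0-day, the interaction of Ptgs2 was -1.51 and was called (adjusted p = 0.00131). For the metallothionein gene Mt2 the rises were 2.35 ± 0.28 and 2.84 ± 0.28 and the interval -0.29 to 1.26. In the IL-6 family, Il6, Il11, Osmr and Socs3 rose in both strains, while the receptor gene Il11ra1 had a lower interaction of -0.83 ± 0.16 (adjusted p = 0.00112). Of 26 interferon-stimulated genes the interaction was called for 0 by edgeR and for 0 by DESeq2. In the edgeR test 2 had an unadjusted p under 0.05, toward a lower response in STR/ort, beside 10.6% of all genes. The 0-day joints as control gave 1 higher and 6 lower, beside 4.31% and 9.35% of all genes. Mx2, of this list, was at -1.03 (adjusted p = 0.21) against the contralateral joints and was called with the replicate number as a block. It was also called against the 0-day joints, at -1.88 (adjusted p = 0.00164). Of 12 genes of the IL-1 family Il1r2 was called, and Il1b, Il33 and Il1r1 rose in both strains.

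Jun and Npas2 were the called members of 2 further lists. Jun, a subunit of AP-1, was at 72.3, 54.9, 56.2, 49.6 and 63.1 CPM in C57BL/6 contralateral and 86.8, 73.9, 82.1, 107 and 81.4 CPM in injured joints. In the joints of STR/ort the values were 66.5, 81.2, 74.5, 88.5 and 102 CPM and 62.3, 67.9, 58.9, 59.7 and 99.5 CPM, with replicate 5 the highest injured joint. The interaction was -0.82 ± 0.19 (adjusted p = 0.0109). At 0-day the STR/ort joints held 270.4, 254, 235 and 233 CPM, above all others, and with them as control the interaction was -2.32. Of the 24 immediate early genes Jun was the 1 called, beside 2.48% lower among all genes. With the 0-day joints as control 16 were lower, beside 9.35% of all genes. Without STR/ort injured replicate 5, 3 were lower, beside 692 of 17310 genes. Npas2, a partner of the circadian clock, rose in C57BL/6 by 1.27 ± 0.22 and stood at -0.13 ± 0.21 in STR/ort, with an interaction of -1.40 ± 0.31 (adjusted p = 0.00597). The other 15 clock genes were not called. Against the 0-day joints Npas2 was at -0.45 (adjusted p = 0.38) and not called, and 10 of the 16 clock genes were lower, beside 9.35% of all genes. The hour of dissection is not given in the sources used here.

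Fast muscle genes had a summed level of 53780 to 125600 CPM (median 72140) in C57BL/6 contralateral and 49010 to 77170 CPM in C57BL/6 injured joints. In STR/ort it was 44910 to 78450 CPM in contralateral and 24180 to 61980 CPM in injured joints. Of the 18, 13 fell in STR/ort and 3 in C57BL/6, beside 2.7% and 1.34% of all genes, and Myh1 rose in C57BL/6. The interaction was called for 0 by edgeR and by DESeq2, with 1 at an unadjusted p under 0.05 toward a lower response, beside 10.6% of all genes. Myh4, the heavy chain of the fastest fibres, stood at -0.61 ± 0.23 in C57BL/6 and -0.80 ± 0.23 in STR/ort. In STR/ort mice at 0-day the summed level was 113000 to 131500 CPM, above every 1-day joint of the strain, and in C57BL/6 mice at 0-day it was 50680 to 81680 CPM. With the 0-day joints as control, 17 of the 18 fast muscle genes and 20 of 20 genes of the mitochondrial respiratory chain had a lower interaction, beside 9.35% of all genes, whereas with the contralateral joints 0 of those 20 were called by either tool or had an unadjusted p under 0.05.

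Erythroid genes had a summed level of 4711 to 7051 CPM in C57BL/6 contralateral and 3434 to 5466 CPM in injured joints, and 2139 to 3310 and 2054 to 2836 CPM in those of STR/ort. The median log2 fold change was -0.486 in C57BL/6 and -0.168 in STR/ort for erythroid genes, -0.438 and -0.169 for neutrophil markers, and -0.453 and -0.096 for B cell markers. All 3 medians were further from 0 in C57BL/6. Il1r2, a neutrophil marker here, was the 1 member called in the interaction. An unadjusted p under 0.05 toward a higher response in STR/ort was found for 3 of 11 erythroid genes, 9 of 17 neutrophil markers and 3 of 15 B cell markers, beside 6.75% of all genes, and DESeq2 called 0, 1 and 0 of them. Set against the 0-day joints, 1, 12 and 7 members of these lists were called higher, beside 4.31% of all genes. Of 18 cell cycle genes 0 were called by either tool and 8 had an unadjusted p under 0.05 in the same direction.

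**Figure D5:**
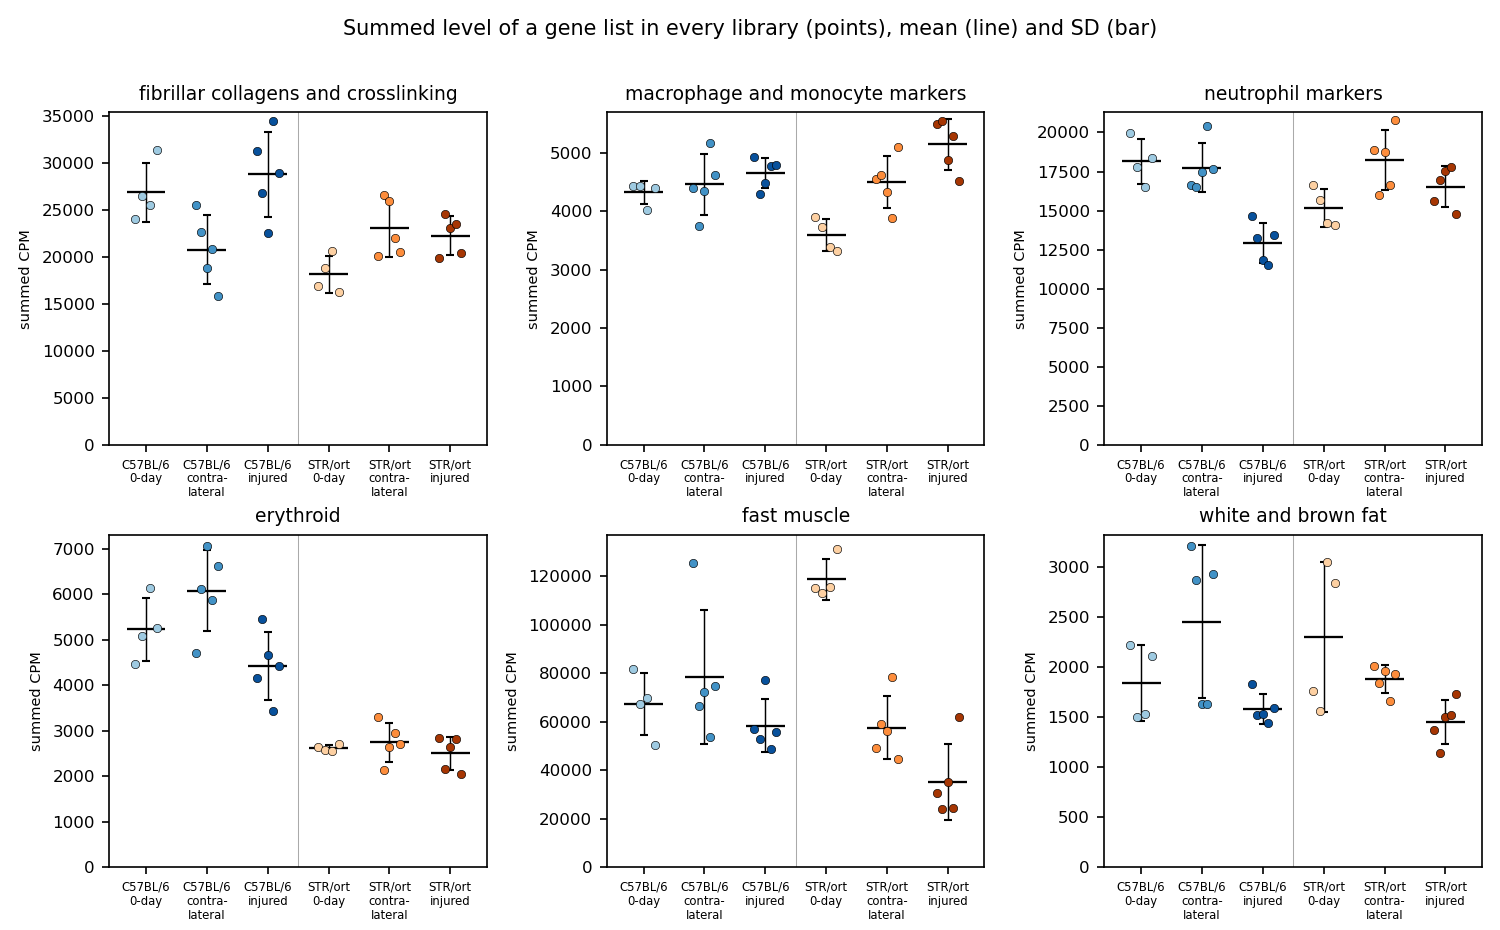
Points are the summed CPM of a gene list in each library, lines group means and bars SD, on a linear y axis from 0, for the 6 groups of both strains (4 libraries at 0-day, 5 in each group at 1-day). Neutrophil markers of C57BL/6 did not overlap between contralateral and injured joints, and fast muscle was lowest in the STR/ort injured joints apart from replicate 5.

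Of 17 genes of muscle repair and lost innervation, 7 rose in C57BL/6 and 3 in STR/ort, beside 4.26% and 1.61% of all genes. The 3 were Myod1, the myogenic transcription factor gene, the acetylcholine receptor gene Chrna1 and Ankrd1, which rose in both strains. Chrnd, which encodes the delta subunit of the acetylcholine receptor of muscle, was at 0.674, 0.92, 0.902, 0.315 and 0.849 CPM in C57BL/6 contralateral and 1.63, 1.11, 1.18, 1.87 and 2.44 CPM in injured joints. STR/ort joints without and with injury held 0.753, 0.299, 0.841, 1 and 0.742 CPM and 0.427, 0.441, 0.207, 0.365 and 0.721 CPM. These are few counts, and the 5 injured C57BL/6 joints were the 5 highest. Chrnd was the 1 member called by edgeR, with a lower interaction of -2.10 ± 0.48 (adjusted p = 0.00802). DESeq2 called 3 members lower, and 9 were lower against the 0-day joints, beside 9.35% of all genes.

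The remaining lists held 1 member called by edgeR or none. Serpina3n was the 1 of 12 genes of the plasminogen system, where Plau rose in both strains, and its call was lost without 1 library. Without STR/ort injured replicate 5, 3 of the 12 were lower. Selp was the 1 of 18 endothelial genes and Hmox1 the 1 of 17 genes of glycolysis and hypoxia. DESeq2 called 2 genes each in the plasminogen, endothelial and skin lists and 1 in that of glycolysis and hypoxia. Trp63, a transcription factor gene of keratinocytes, was called lower at -1.02 ± 0.26 (adjusted p = 0.0208) among 6 skin genes, and its call was lost without either of 2 libraries and with the replicate number as a block. The interaction was called by edgeR for 0 of 14 nerve and Schwann cell, 13 glucocorticoid responsive, 15 muscle atrophy, 13 heat shock, 14 slow muscle, 16 prostaglandin and leukotriene, 8 mast cell, 18 osteoblast and osteocyte, 11 T cell and 14 osteoclast genes. An unadjusted p under 0.05 was found in these lists for 3, 1, 4, 3, 2, 1, 2, 2, 1 and 2 genes, in that order, beside 17.4% of all genes, and DESeq2 called 1 nerve and Schwann cell gene and 0 in the other lists. The control from 0-day called many members of some of these lists, beside 4.31% higher and 9.35% lower among all genes. It gave 11 osteoblast and osteocyte genes higher and 1 lower, 5 prostaglandin and leukotriene genes higher and 1 lower, and 5 osteoclast, 3 T cell and 1 mast cell genes higher. In the other direction, 9 heat shock, 7 glucocorticoid responsive, 2 slow muscle, 2 muscle atrophy and 1 nerve and Schwann cell genes were lower. Of the lists with 1 or 2 called members, it gave 8 genes of glycolysis and hypoxia lower and 1 higher, 4 endothelial and 5 IL-1 family genes higher, 2 IL-6 family genes lower and 1 higher, and 1 higher and 1 lower in each of the plasminogen, skin and antioxidant lists. Without STR/ort injured replicate 5, 2 genes were lower in each of the lists of slow muscle, muscle repair, skin and antioxidant genes, and 1 in each of those of fast muscle, mitochondrial respiratory chain, muscle atrophy, nerve and fat. In the same setting 2 genes were higher in the Wnt, TGF-beta and BMP list, and 1 in each of the macrophage, activated fibroblast and TIMP and ADAMTS lists.

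At 1-week, in libraries not used above, the interaction of the same strains was called for 85 genes (0.491%), 61 lower (0.352%) and 24 higher (0.139%). Of the 429 genes that were lower at 1-day, 26 were lower at 1-week, which is 6.06% of the first list and 42.6% of the second. In all, 115 of the 429 had an unadjusted p under 0.05 in the same direction, beside 6.79% of all genes. The 26 included the fibronectin gene Fn1, the matrix genes Dpt and Clec3b, the myogenic co-receptor genes Boc and Cdon, Col14a1 and Prg4. The interaction at 1-week was -1.31 for Col14a1 (adjusted p = 9.19e-04) and -1.74 for Prg4 (adjusted p = 5.68e-04). H19, Rab15 and Tnnt2 were lower at 1-day and higher at 1-week, and they are named after their values were seen. Postn, Thbs2 and Sfrp2 stood at 1.09, 0.65 and -0.43 at 1-week and were not called. Of the 31 higher genes 0 were called at 1-week by edgeR, and 1 had an unadjusted p under 0.05 in the same direction.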

How the data were processed

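Whole knee joints were profiled by RNA-seq in 100 libraries of 3 strains, of which the 20 described here came from injured and contralateral joints of STR/ort and C57BL/6 at 1-day. Per the labels, the authors aligned reads with TopHat2 2.0.11 to mm10 and counted them per gene with featureCounts. The deposited values are counts, not normalized. Of 17313 entries 3 repeated ones were dropped, and 24 symbols that read as dates are not named. The study's minimum of 2 counts in 5 libraries removed 0 genes. Whether counting used strand is not given in the sources used here, so that overlapping and antisense genes, and close paralogs such as H2-Q10, are uncertain.

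From these counts, edgeR 4.0.16 (R 4.3.3) was used with TMM factors and the quasi-likelihood test, in 1 fit of the 30 libraries of 1-day (MRL/MpJ included, 6 groups), with Benjamini-Hochberg adjustment over 17310 genes. Each adjusted p comes from this test, each ± after a log2 fold change is its standard error, and 95% intervals use 24 degrees of freedom. The 1-week and 0-day contrasts were fitted in the same way. A self-test on simulated counts for the interaction was run over 17310 genes. Only a sample of genes without low counts was changed in it. Of these, 82% of those raised by 1 and 88% of those lowered by 1 on the log2 scale were recovered. All other genes were simulated without a difference between groups. The shares do not cover genes of few counts. Total counts of 7556012 to 20986027 limit genes of few counts. The members and gene lists were chosen with earlier results of these data known. Genes are named by rule: in each direction the 12 that were called at the lowest adjusted p among those at 1 CPM or more, up to 3 called members of each list and, for lists with none, the most abundant and most responsive members. Genes that lists describe by name without values follow from their calls. Some members that the rule names are not reported here, and they remain in the counts. Other names are stated as chosen after their values were seen. Gene positions and promoters are from RefSeq, GRCm38.p6, the same assembly as mm10, where 16662 symbols matched directly and 559 by a synonym. Alternatives were other size factors, scaling by 25 housekeeping genes, RUVg with 1 or 2 factors, DESeq2 1.42.0, other filters on low counts, only the 4 groups, a replicate block, the 0-day joints as control and leaving out each library. The study names RUV, and its number of factors is not given in the sources used here.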

Additional observations from a re-analysis of the deposited data

Results flagged for a closer look

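The injury response differed between STR/ort and C57BL/6 by the interaction test itself for 460 genes, and the interaction of those that are named is given as a log2 fold change. It was higher in STR/ort for Fam110c (2.55), Hal (2.49), Il13ra2 (1.32), Gm20597 (1.07), Fasn (1.00), Smox (0.99), Hmox1 (0.95), Gm20362 (0.87), Clec4e (0.85), Selp (0.73), H2-Q10 (0.70), Acaca (0.69), Il1r2 (0.68) and Trem1 (0.65). It was lower, by more than 1.3 on the log2 scale, for Angptl1 (-2.98), Sfrp2 (-2.35), Col14a1 (-2.33), Gpnmb (-2.29), Chrnd (-2.10), Col3a1 (-1.97), Ptn (-1.72), Cthrc1 (-1.61), Fzd2 (-1.56), Dkk3 (-1.56), Mmp12 (-1.50), Anpep (-1.46), Postn (-1.44), Thbs2 (-1.42), Npas2 (-1.40) and Col5a1 (-1.35). Smaller negative values were found for Serpina3n (-1.24), Loxl1 (-1.23), Kera (-1.22), C3ar1 (-1.18), Sulf2 (-1.14), Timp4 (-1.04), Trp63 (-1.02), Sod3 (-0.97), C1s1 (-0.93), Scx (-0.93), Sepp1 (-0.92), C1qa (-0.92), Prg4 (-0.88), Adamts15 (-0.84), Il11ra1 (-0.83), Jun (-0.82), Mmp23 (-0.80), Mmp2 (-0.79), Mrc1 (-0.78), Rin2 (-0.74), Adamts12 (-0.65) and C1ra (-0.62).

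Of the named genes, the 53 with a called interaction were checked in each of the 4 groups, and of these 212 groups of 5 libraries 11 held a library far from the other 4, and chance alone gives about 1 in 20 groups. Of the 11, 4 were STR/ort injured replicate 5, with 26.4 CPM for Clec4e, 104.0 CPM for Col14a1, 153 CPM for Rin2 and 99.5 CPM for Jun. All 4 genes were also called without that library. In C57BL/6 contralateral joints, Smox stood at 264 CPM in replicate 1 and Loxl1 at 33.1 CPM in replicate 2. In C57BL/6 injured joints, Smox stood at 64.5 CPM and Fzd2 at 14.4 CPM in replicate 4, Fam110c at 0.698 CPM in replicate 1 and Kera at 80.4 CPM in replicate 5. Anpep stood at 57.5 CPM in STR/ort contralateral replicate 2.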

How the results depend on the processing

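The count of 460 genes with a called interaction (31 higher, 429 lower) was 459 with RLE size factors, 402 with scaling by 25 housekeeping genes (21 higher, 381 lower), 498 and 577 with 1 and 2 RUVg factors, 505 with DESeq2 (38 higher, 467 lower), 477 with filterByExpr, 460 with no filter and 366 with only the 4 groups fitted (21 higher, 345 lower). Between groups, the first RUVg factor held 82.0% of its variance and the second 29.1%. With the 0-day joints as control the interaction was called for 2364 genes, 746 higher and 1618 lower, which held 22 of the 31 and 149 of the 429. That control also gave 2795 genes for the injury response of STR/ort against 746, and 522 rises and 281 falls in C57BL/6. It reversed the interaction of Acaca to -0.34, Fasn to -1.23, Mmp2 to 0.070, Mmp23 to 0.13, Adamts15 to 0.39, Prg4 to 0.035, Hba-a2 to 1.83 and Ptgs2 to -1.51 (Fasn, Hba-a2 and Ptgs2 past the threshold), and the cause was not tested.

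With 1 library at a time left out there were 339 to 757 called interactions, 24 to 67 higher and 315 to 692 lower. The most came without STR/ort injured replicate 5 (65 higher, 692 lower), where 30 of the 31 and 425 of the 429 were called, the fewest without STR/ort contralateral replicate 2 (24 higher, 315 lower), and the 67 without C57BL/6 contralateral replicate 1 (513 lower). The injury response ranged over 603 to 1049 genes in STR/ort and 707 to 1147 in C57BL/6, and the strain difference over 1653 to 1843 genes in contralateral and 1970 to 2436 in injured joints. The strain difference in injured joints, 2141 genes, fell to 1330 and 1375 with 1 and 2 RUVg factors. With housekeeping scaling it split into 663 higher and 1744 lower against 847 and 1294, and that of contralateral joints into 756 and 1125 against 991 and 820. Over the 110 named genes, 3180 of 3299 values kept direction and side of the threshold, 88 lost the call, 23 gained it and 8 reversed. Of 53 called genes, 44 kept the call with each library left out and 25 under each other setting.

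With the replicate number as a block, 456 interactions were called (32 higher, 424 lower, holding 23 of the 31 and 385 of the 429), and 105 of the 110 named genes kept their side of the threshold. Same-numbered joints deviated together in some of the pairs, at correlations of -0.21 to 0.41 in 10 pairs. Of these, 6 were over 0.1 and 6 were highest with their own number, which is more than random numbering would give on average. The labels name no animal, so the numbers were not taken to pair the joints. The p-values of the main fit do not account for joints that may share a mouse.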
